A study of Mus musculus with 72 samples.

Results

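The complement and coagulation factors were followed in mouse liver as 40 named genes out of the 55573 in the count table. Members were the rows whose Ensembl identifier maps to 1 of 40 listed symbols, and each of the 40 symbols was found once. The list was drawn up with earlier results of these data known. They comprised 7 genes of the classical complement pathway, 4 of the lectin pathway, 3 of the alternative pathway, C3, 6 of the terminal pathway, 2 complement inhibitors, 4 genes of the contact system, 6 vitamin K-dependent factors, the cofactor gene F5, 4 genes of fibrin formation, the anticoagulant gene Serpinc1 and the plasminogen gene Plg.

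Complement and coagulation are cascades of plasma proteases that circulate as inactive precursors, most of which are made by hepatocytes. Complement is entered through antibody (classical), sugar patterns on microbes (lectin) or slow spontaneous turnover (alternative), meets at C3 and ends in a pore formed by the terminal components. Coagulation ends in the conversion of fibrinogen to fibrin by thrombin, fibrin is dissolved again by plasmin, and several members of both cascades are acute-phase genes whose hepatic transcription rises with inflammatory cytokines.

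Liver RNA came from adult male C57BL/6 mice kept in a 12:12 light/dark cycle, with ZT0 at lights on. Conventional, specific pathogen-free (SPF) and germ-free (GF) mice were either Bmal1 fl/fl (WT) or Bmal1 fl/fl with Albumin-Cre (LKO). All 4 groups thus carried the floxed allele, WT mice carried no Cre, and the Albumin promoter directs the loss of Bmal1, a transcription factor of the circadian clock, to hepatocytes. There were 18 mice per group, 3 at each of ZT2, ZT6, ZT10, ZT14, ZT18 and ZT22, 72 libraries in all, with 1 library per mouse.

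Libraries held 17369927 to 22076113 counts in genes (median 19106725.5). Levels are given as CPM, counts scaled to a common library size after TMM correction for library composition. A member was called where its adjusted p, from edgeR's quasi-likelihood fit and adjusted over all genes tested by the method of Benjamini and Hochberg, was under 0.05. The Arntl (Bmal1) counts do not separate the deleted exon, so Npas2, a clock gene that was high in LKO livers, served as the check of genotype, with medians of 0.283 CPM in SPF WT, 24.8 in SPF LKO, 0.335 in GF WT and 26.3 in GF LKO mice. Of the 72 libraries, 4 went against their labels. The libraries labelled SPF LKO ZT14 replicate 2 and SPF LKO ZT18 replicate 1 had 0.220 and 1.81 CPM of Npas2, where the other LKO libraries of those ZT had 24.2 to 36.7. The libraries labelled SPF WT ZT14 replicate 3 and GF WT ZT6 replicate 3 went against their ZT, with Dbp, a clock output gene, at 67.5 CPM against 4.25 and 7.72 in the former and at 16.3 against 43.1 and 59.5 in the latter. They were kept, and the calls that were gained or lost without them are named with each comparison. Alb, the gene whose promoter drives Cre, had medians of 83210 CPM in SPF WT, 36650 in SPF LKO, 105000 in GF WT and 32080 in GF LKO mice. Of 7 hepatocyte markers, Alb among them, LKO mice had 1 called higher and 2 lower under SPF conditions (Alb, Trf and Ass1). Under GF conditions 2 were called higher and 3 lower (Alb, Ttr, Trf, Ass1 and Serpina1c). Their part in the members' changes between genotypes was not tested. In bulk liver, fewer cells of a type and less RNA per cell cannot be told apart.

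In SPF WT mice the members spanned a wide range of levels. Per kilobase of exon, the genes of the 3 fibrinogen chains stood highest, with mean levels of 1659 CPM per kb for Fgg, 1600 for Fga and 1228 for Fgb, followed by C3 at 974 and Kng1, the kininogen gene, at 604. At the other end stood Cfp (properdin) at 10.2, C2 at 8.62 and Cfd (factor D) at 1.15 CPM per kb. The other 32 members lay between 18.5 CPM per kb for Masp1 and 434 for Plg. In each library, 39 of the 40 members had at least 139 counts, whereas Cfd had from 0 to 161.

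Under SPF conditions, C9 was the only complement gene called higher in LKO mice, and the other complement calls were lower. The fibrinogen genes, averaged over the day, had no call between the genotypes. No group carried Cre without the loss of Bmal1, so the part of Cre itself was not tested. Of 39 members tested, 6 rose and 8 fell in SPF LKO mice relative to SPF WT mice (over all genes tested 11.6% rose and 11.5% fell), and 20 of the 39 had an unadjusted p under 0.05. The members' median log2 fold change was 0.00991, against -0.00537 over all genes. C9, the pore-forming last component of the terminal pathway, rose most, and C2, C1s1, Cfb and C8a fell, while Plg rose. By role, 4 of 7 classical genes fell (C1qa, C1qb, C1s1 and C2), as did both alternative pathway genes tested (Cfb and Cfp), the 4 lectin genes had no call, and in the terminal pathway C9 rose, C8a fell and 4 genes had no call.

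C9 in SPF WT mice ranged from 528.7 CPM to 1199 CPM (median 840.9), and in SPF LKO mice from 647.8 CPM to 2381 CPM (median 1514). The groups overlapped through the 2 lowest SPF LKO libraries, which were the 2 libraries whose Npas2 went against their labels, and the other 16 of 18 SPF LKO libraries lay above every SPF WT library. The log2 fold change was 0.87 ± 0.11 (SE, n = 18 per group, adjusted p = 2.9e-07), and 0.95 without the libraries that went against their labels. The mean was higher in SPF LKO mice at 6 of 6 ZT, and C9 was called at ZT2, ZT6, ZT10 and ZT22, with fold changes on the log2 scale from 0.68 at ZT2 to 0.98 at ZT10. The 231 bases before C9 (chr15:6445096-6445326, plus strand, GRCm38.p6, from RefSeq) are shown because C9 was the member with the largest change, and the capitals mark a match that a D-box (TTATGNAA, minus strand), the element bound by Dbp and related factors, shares with a C/EBP-type site (TTGCNNAA, plus strand).
C9 promoter: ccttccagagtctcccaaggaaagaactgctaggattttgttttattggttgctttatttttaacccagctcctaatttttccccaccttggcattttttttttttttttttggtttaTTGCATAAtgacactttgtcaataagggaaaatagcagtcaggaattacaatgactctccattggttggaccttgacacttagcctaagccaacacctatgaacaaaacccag
The D-box letters stood in 3.38% of 32851 RefSeq promoter windows of the same kind (250 bases before to 50 after a start, both strands), and in 3 of the 31 members with a window (C1ra, C4bp and C9). A member was counted where any of its windows matched, whereas the share is of single windows, so they are unlike measures.

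C2, the classical pathway protease that is cleaved alongside C4, had from 25.4 to 40.3 CPM in SPF WT (median 33.3) and from 17.9 to 37.1 CPM in SPF LKO mice (median 22.5). Its SPF LKO mean was lower at 6 of 6 ZT, 13 of 18 SPF LKO libraries lay below every SPF WT library, and the 2 highest SPF LKO values, 37.1 and 34.2 CPM, again belonged to the libraries with low Npas2. The log2 fold change was -0.47 ± 0.077 (SE, adjusted p = 1.4e-05). C1s1, which encodes the protease C1s, had 255.5 to 322.7 CPM (median 283.2) in SPF WT and 189.3 to 293.9 CPM (median 221.5) in SPF LKO mice, a log2 fold change of -0.30 ± 0.050 (SE, adjusted p = 1.9e-05). Here 15 of 18 SPF LKO libraries lay below every SPF WT library. C1s1 and C1ra have near-identical neighbours, C1s2 and C1rb, and reads that align to both copies are not in the counts, so the share of each copy is uncertain.

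Cfb, factor B of the alternative pathway, had 32.7 to 80.2 CPM (median 58.3) in SPF WT and 29.3 to 60.7 CPM (median 44.5) in SPF LKO mice, and its ranges overlapped over most of their length (log2 fold change -0.32 ± 0.094 SE, adjusted p = 0.010). Cfb and C2 lie next to each other on the minus strand of chromosome 17 (34856374 to 34862518 and 34862604 to 34898265, GRCm38). C8a, the alpha chain of C8, had 836.1 to 1699 CPM (median 1090) in SPF WT and 639.4 to 1170 CPM (median 903.5) in SPF LKO mice, a log2 fold change of -0.32 ± 0.077 (SE, adjusted p = 0.0023), with all 3 SPF LKO values below all 3 SPF WT values at 5 of 6 ZT and above them at the other. The partner chains C8b and C8g had log2 fold changes of 0.13 and 0.20, without a call (adjusted p = 0.22 and 0.059).

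Of the other complement members, C1qa, C1qb and Cfp were lower in SPF LKO mice, with log2 fold changes of -0.24 ± 0.088, -0.28 ± 0.094 and -0.25 ± 0.088 (SE, adjusted p = 0.041, 0.025 and 0.035). C1q and properdin are products of macrophages and other myeloid cells rather than hepatocytes. The summed level of 8 Kupffer cell and macrophage markers had a median of 278.5 CPM (201.9 to 519.0) in SPF WT and 240.3 CPM (198.6 to 310.7) in SPF LKO mice, 3 of the 8 were called lower (Clec4f, Timd4 and Cd5l) and none higher. Their part in the result was not tested. SPF WT ZT6 replicate 3 had the highest marker sum and the highest C1qa, C1qb and C1qc, and the calls of C1qa and Cfp were lost when 1 library was left out in 13 and 9 of 36 cases, that library among them (adjusted p up to 0.081 and 0.070). Both calls were kept without the libraries that went against their labels (adjusted p = 0.0194 and 0.0187). C4b, C4bp, Cfi, C3, Hc (the gene of C5), C6, Mbl1, Mbl2, Masp1, Masp2, C1ra and C1qc had no call in SPF mice, with log2 fold changes between -0.23 for C1qc and 0.20 for C4b. Without the libraries that went against their labels, C1qc and Mbl2 were called as well, 16 members in place of 14. The calls over all genes rose too, from 3043 of 13159 to 3674 of 13157.

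Among the coagulation members under SPF conditions, Plg, the gene of plasminogen, from which plasmin is cut, had 1224 to 1984 CPM (median 1620) in SPF WT and 1538 to 2429 CPM (median 2105) in SPF LKO mice. The SPF LKO mean was higher at 6 of 6 ZT and 13 of 18 SPF LKO libraries lay above every SPF WT library, with a log2 fold change of 0.36 ± 0.065 (SE, adjusted p = 5.9e-05). F12 (0.22 ± 0.042 SE, adjusted p = 0.00011) and F11 (0.29 ± 0.10 SE, adjusted p = 0.034) of the contact system, F2, the prothrombin gene (0.20 ± 0.046 SE, adjusted p = 0.0012), and Serpinc1, the antithrombin gene (0.16 ± 0.040 SE, adjusted p = 0.0030), also rose, each by a log2 fold change under 0.30. Pros1, the gene of the anticoagulant cofactor protein S, fell, with a log2 fold change of -0.21 ± 0.060 (SE, adjusted p = 0.0090). The call of F11 was lost without 1 of 8 libraries (SPF WT ZT6 replicate 2, ZT18 replicate 2 and ZT22 replicates 1, 2 and 3, and SPF LKO ZT2 replicate 1 and ZT6 replicates 2 and 3). Without the libraries that went against their labels, the log2 fold change of F11 was 0.42 (adjusted p = 0.00012). The fibrinogen genes, F13b, F5, F7, F9, F10, Proc, Klkb1 and Kng1 had no call, and their log2 fold changes lay between -0.13 for Klkb1 and 0.17 for Fgb.

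**Figure D1:**
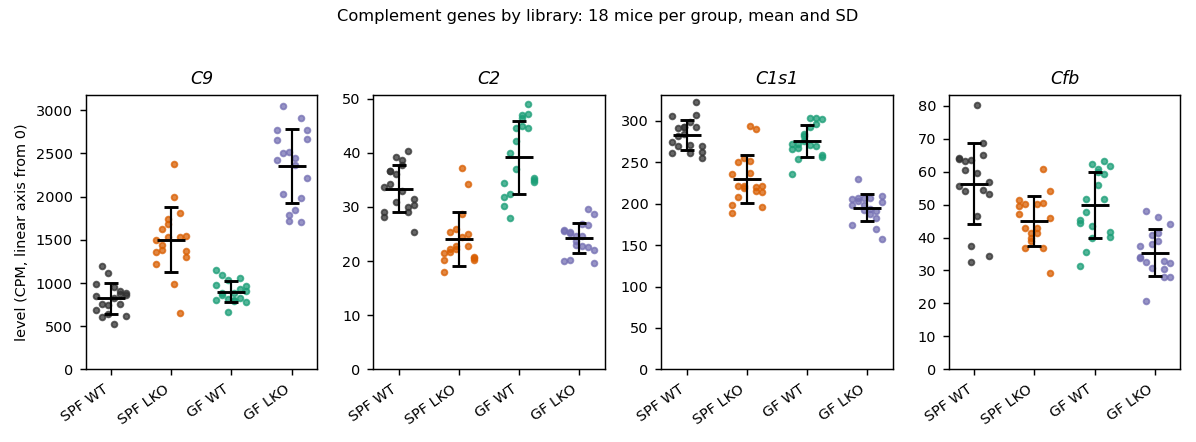
Levels of C9, C2, C1s1 and Cfb in each of the 72 libraries. The vertical axis is CPM from 0, points are mice in order of ZT within a group, and bars are the mean and SD of 18 mice. GF LKO mice had 1709 to 3047 CPM of C9, above each GF WT value, and both genotypes overlapped for Cfb.

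In GF mice the same comparison called more members. Of 39 tested, 11 rose and 15 fell in GF LKO compared with GF WT mice (over all genes 15.6% rose and 15.2% fell), with a median log2 fold change of -0.0616 against 0.00824 over all genes. By role, 5 of 7 classical genes fell and C4b rose, 4 of 6 terminal genes rose and C8a fell, and 4 of 6 vitamin K-dependent genes fell with none rising. Of the 14 members called in SPF mice, 9 were also called in GF mice, each in the same direction, which is 64.3% of the SPF calls and 34.6% of the GF calls. The same shares over all genes are not given here, so the overlap is not shown to be particular to the members.

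C9 had 659.2 to 1151 CPM (median 879.8) in GF WT and 1709 to 3047 CPM (median 2434) in GF LKO mice, so that the lowest GF LKO library stood above the highest GF WT library. The log2 fold change was 1.39 ± 0.079 (SE, adjusted p = 2.7e-17), a 2.63-fold difference, and C9 was called at 6 of 6 ZT. C2 had 28.02 to 49.04 CPM (median 38.5) in GF WT and 19.6 to 29.6 CPM (median 24.6) in GF LKO mice (log2 fold change -0.68 ± 0.070 SE, adjusted p = 3.05e-10). The C2 ranges touched only between 28.02 and 29.6 CPM. C1s1 had 236.5 to 303.6 CPM (median 272.4) in GF WT and 157.8 to 229.4 CPM (median 198.9) in GF LKO mice, with no overlap (log2 fold change -0.49 ± 0.041 SE, adjusted p = 1.5e-12).

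Cfb had 31.4 to 63.2 CPM (median 49.7) in GF WT and 20.7 to 48.1 CPM (median 33.8) in GF LKO mice, a log2 fold change of -0.48 ± 0.095 (SE, adjusted p = 0.000105). Plg had 1233 to 2148 CPM (median 1844) in GF WT and 1939 to 2933 CPM (median 2435) in GF LKO mice, a log2 fold change of 0.40 ± 0.063 (SE, adjusted p = 2.8e-06). Hc had 819.1 to 1279 CPM (median 1127) in GF WT and 1102 to 1634 CPM (median 1314) in GF LKO mice, a log2 fold change of 0.29 ± 0.054 (SE, adjusted p = 4.9e-05), and 11 of 18 GF LKO libraries lay above every GF WT library. C9, C2, C1s1, Cfb, Plg and C8a were thus called in both SPF and GF mice, the last with a log2 fold change of -0.19 ± 0.054 (SE, adjusted p = 0.0062) in GF mice.

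The remaining GF calls were smaller. The mannose-binding lectin genes parted, with Mbl2 lower (-0.29 ± 0.055 SE) and Mbl1 higher (0.28 ± 0.083 SE), and the protease gene Masp1 was lower (-0.17 ± 0.055 SE). C1ra (-0.25 ± 0.059 SE), C1qa and C1qc were lower, and C4b (0.27 ± 0.090 SE), C8g (0.26 ± 0.061 SE), C8b (0.20 ± 0.068 SE) and the inhibitor gene C4bp (0.19 ± 0.047 SE) were higher. C4b has a near-identical copy, C4a, and is uncertain in the same way as C1s1. The Kupffer cell and macrophage marker sum was 247.7 CPM (165.0 to 315.3) in GF WT and 204.4 CPM (128.6 to 269.3) in GF LKO mice at the median, with 3 of 8 markers lower (Timd4, Marco and Csf1r), and its part in the C1qa and C1qc calls was not tested. F7 (-0.23 ± 0.066 SE), Pros1 (-0.20 ± 0.057 SE), F5 (-0.20 ± 0.067 SE), Proc, the protein C gene (-0.18 ± 0.034 SE), Kng1 (-0.17 ± 0.036 SE) and F9 (-0.14 ± 0.053 SE) fell, and F12 (0.19 ± 0.047 SE), Fgb (0.26 ± 0.092 SE) and Fgg (0.25 ± 0.098 SE) rose. Without the libraries that went against their labels, C1qc, Fgb and Fgg lost their calls (adjusted p = 0.070, 0.051 and 0.078) and Masp2 gained one. Over all genes, 3899 of 12662 were called with those libraries and 3819 of 12696 without them. Of the 26 calls 21 were kept whichever 1 library was left out, and those of C1qa, C1qc, F9, Fgb and Fgg were lost without 1 of 2 (GF WT ZT2 replicate 2 and ZT6 replicate 1 for C1qa), 22, 14, 7 and 22 libraries of 36. C3, C6, Cfi, Cfp, C1qb, Masp2, F2, F10, F11, F13b, Fga, Klkb1 and Serpinc1 had no call.

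**Figure D2:**
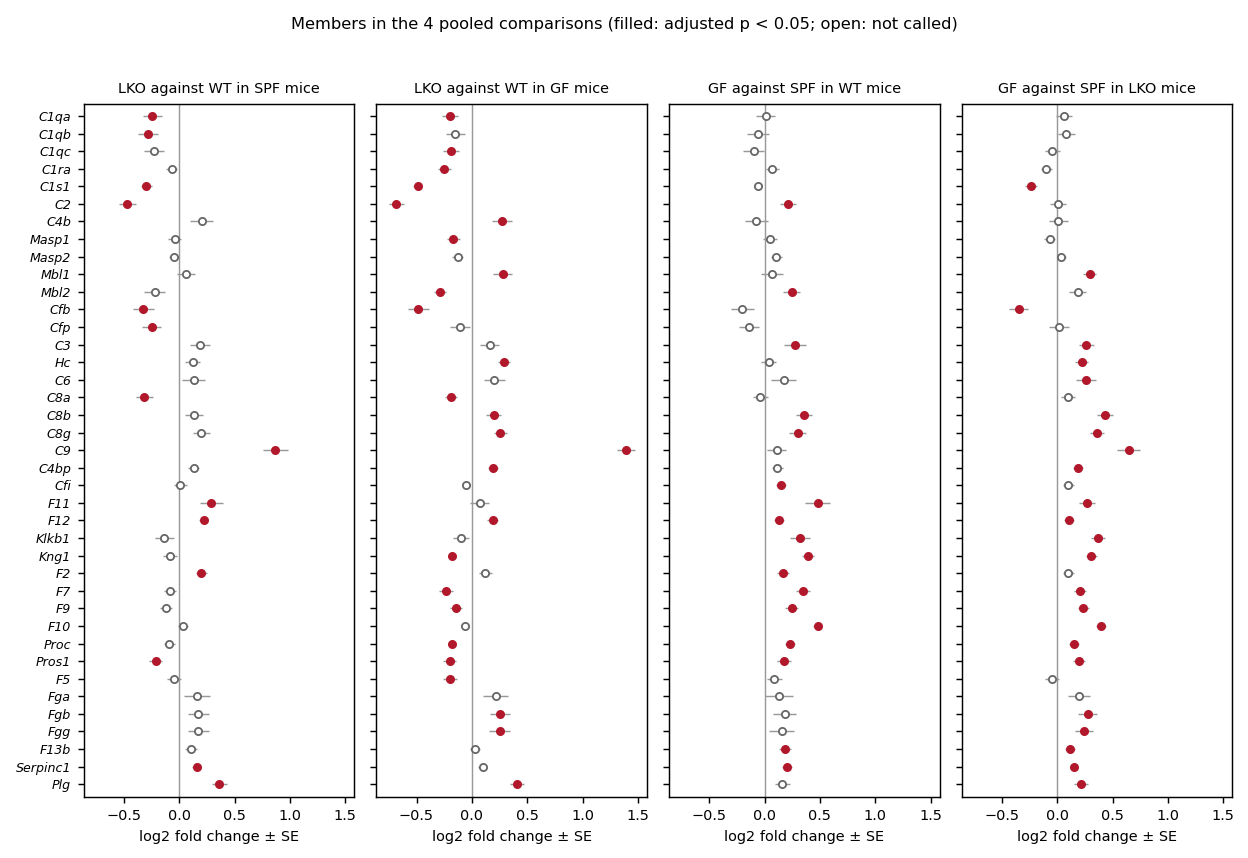
Log2 fold change (horizontal axis, ± SE) of 39 members in the 4 comparisons pooled over ZT, with 18 mice per group. Filled points were called and open points were not. C9 lies farthest from 0 in both genotype comparisons, at 0.87 and 1.39, and in GF compared with SPF WT mice the called points lie to the right of 0.

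Whether the effect of the genotype itself differed between GF and SPF mice was tested on the 72 libraries together. In edgeR 0 of 40 members passed (0.438% of all genes did), and 5 had an unadjusted p under 0.05, namely C1ra, C1s1, C2, C9 and Cfd. C9 came nearest, its effect being larger in GF mice by 0.52 ± 0.14 on the log2 scale (SE, adjusted p = 0.075). DESeq2 called C9, and edgeR called 1 member when 1 of 9 libraries was left out. A larger genotype effect in GF mice was therefore not shown for the members by the main test, and the greater number of GF calls does not show one.

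Tested at single ZT, with 3 mice per group, the genotype comparison gave 21 calls among the 240 member by ZT tests in SPF mice (4.92% of all gene by ZT tests) and 31 in GF mice (7.99%). In GF mice C9 was called at 6 ZT, C2 at 5 (not at ZT2) and C1s1 at 4 (ZT10, ZT14, ZT18 and ZT22). In SPF mice none was called at ZT14 or ZT18, the ZT that hold 3 of the 4 libraries that went against their labels, and without those libraries the SPF calls over all ZT became 33. The share over all genes without those libraries is not given here. Fga, Fgb and Fgg were called at ZT10 in both SPF and GF mice and at no other ZT, as described with their rhythm.

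The microbiota comparison asked how the same genes stood in GF compared with SPF mice of 1 genotype. By the paper's methods, GF mice were rederived and kept in isolators, and SPF mice were bred in the vivarium. Colony and housing therefore cannot be told apart from microbial status. In WT mice 18 of 40 members rose and none fell, where 14.2% of all genes rose and 17.7% fell, with a median log2 fold change of 0.157 over members against -0.0203 over all genes. In LKO mice 22 of 39 rose and 2 fell, where 18.1% of all genes rose and 18.4% fell, with medians of 0.187 and -0.0165. The calls lay mainly in coagulation. All 4 contact system genes rose in both genotypes, as did F7, F9, F10, Proc and Pros1, and F2 was called in WT mice and not in LKO mice (log2 fold changes 0.17 and 0.10, adjusted p = 0.021 and 0.115). The hepatocyte markers moved as well. All 7 (Alb, Ttr, Trf, Apoa1, Cps1, Ass1 and Serpina1c) rose in GF WT compared with SPF WT mice, and in LKO mice 5 rose and Alb fell. Their part in the members' rise was not tested.

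F10, the gene of factor X, which joins the contact and tissue factor branches of the cascade, was higher in GF mice at each ZT. It had 356.0 to 518.9 CPM (median 422.5) in SPF WT and 496.0 to 654.4 CPM (median 605.1) in GF WT mice. Of 18 GF WT libraries 17 lay above every SPF WT library, and the exception was GF WT ZT6 replicate 3, which went against its ZT. The log2 fold change was 0.48 ± 0.042 (SE, adjusted p = 5.2e-10). In LKO mice F10 had 373.7 to 529.0 CPM (median 419.1) under SPF and 501.5 to 639.6 CPM (median 567.4) under GF conditions, a log2 fold change of 0.40 ± 0.045 (SE, adjusted p = 1.8e-08). In both genotypes the 3 GF values lay above the 3 SPF values at 6 of 6 ZT.

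F11, the gene of the contact protease factor XI, had 61.5 to 165.4 CPM (median 84.0) in SPF WT and 64.9 to 183.4 CPM (median 122.7) in GF WT mice (log2 fold change 0.48 ± 0.11 SE, adjusted p = 0.00105). In LKO mice it had 70.3 to 139.8 CPM (median 113.4) and 108.2 to 173.6 CPM (median 128.4), a log2 fold change of 0.27 ± 0.073 (SE, adjusted p = 0.0037). Kng1 had 1577 to 2493 CPM (median 1873) in SPF WT and 2330 to 3117 CPM (median 2619) in GF WT mice, with 13 of 18 GF WT libraries above the SPF WT range (log2 fold change 0.39 ± 0.054 SE, adjusted p = 1.6e-06), and 1498 to 2227 CPM (median 1843) and 2103 to 2629 CPM (median 2298) in LKO mice (0.31 ± 0.053 SE, adjusted p = 2.3e-05). Kng1 has a near-identical copy, Kng2, which moved the same way in WT (0.32 ± 0.056 SE) and LKO mice (0.32 ± 0.068 SE).

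Klkb1, the plasma prekallikrein gene, had 239.9 to 514.7 CPM (median 355.2) in SPF WT and 345.4 to 627.4 CPM (median 430.4) in GF WT mice (log2 fold change 0.32 ± 0.090 SE, adjusted p = 0.0059), and 242.4 to 417.4 CPM (median 331.0) and 340.3 to 542.6 CPM (median 415.2) in LKO mice (0.37 ± 0.065 SE, adjusted p = 3.95e-05). F7, the gene of factor VII, the partner of tissue factor, had 68.7 to 109.1 CPM (median 97.8) in SPF WT and 80.9 to 156.0 CPM (median 122.0) in GF WT mice. Of the GF WT libraries 15 lay above the SPF WT range, and the log2 fold change was 0.35 ± 0.066 (SE, adjusted p = 0.00012), with 0.21 ± 0.055 in LKO mice (SE, adjusted p = 0.0030). F9 (0.25 and 0.24), Proc (0.23 and 0.15), Pros1 (0.18 and 0.20) and Serpinc1 (0.20 and 0.15) rose in WT and LKO mice by the log2 fold changes given in that order.

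**Figure D3:**
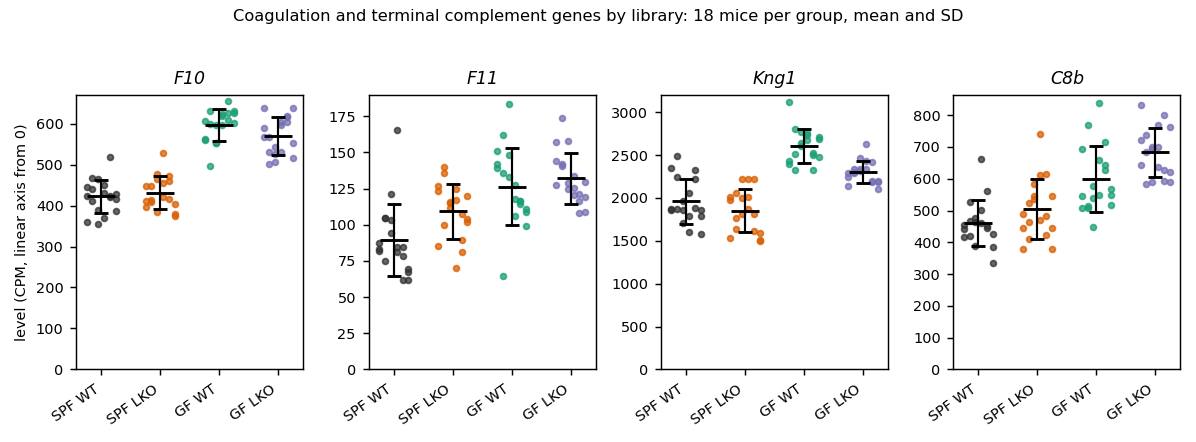
Levels of F10, F11, Kng1 and C8b in each of the 72 libraries. The vertical axis is CPM from 0, points are mice in order of ZT within a group, and bars are the mean and SD of 18 mice. For F10, GF WT mice at 496.0 to 654.4 CPM stood almost wholly above SPF WT mice at 356.0 to 518.9 CPM.

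Among the complement members, 2 of 6 terminal pathway genes rose in GF compared with SPF WT mice and 5 of 6 in LKO mice. C8b, the beta chain of C8, had 334.0 to 663.6 CPM (median 453.4) in SPF WT and 446.6 to 837.3 CPM (median 558.6) in GF WT mice (log2 fold change 0.36 ± 0.075 SE, adjusted p = 0.00045), and 377.7 to 742.3 CPM (median 485.6) and 584.9 to 831.6 CPM (median 689.1) in LKO mice (0.43 ± 0.071 SE, adjusted p = 1.5e-05). C8g, the gamma chain, had 338.7 to 653.9 CPM (median 424.3) in SPF WT and 435.2 to 761.4 CPM (median 563.2) in GF WT mice (0.30 ± 0.076 SE, adjusted p = 0.0029), and 406.4 to 676.9 CPM (median 541.2) and 495.5 to 808.7 CPM (median 669.8) in LKO mice (0.36 ± 0.063 SE, adjusted p = 3.3e-05). C8a had no call in either genotype (-0.04 and 0.10). C9 did not pass in WT mice (0.11 ± 0.085 SE, adjusted p = 0.33) and rose in LKO mice (0.65 ± 0.11 SE, adjusted p = 1.5e-05), where 10 of 18 GF libraries lay above the SPF LKO range. Without the libraries that went against their labels, the rise of C9 in LKO mice was 0.57. Hc (0.22), C6 (0.26), Mbl1 (0.29), C4bp (0.19) and Plg (0.21) were called higher in GF LKO compared with SPF LKO mice and not in WT mice, although Plg was called in WT mice too without the libraries that went against their labels (19 members in place of 18), and the difference between the genotypes in the microbial effect is the same quantity as the difference tested above, which no member passed. Over all genes in WT mice, 4069 of 12776 were called with those libraries and 4094 of 12783 without them.

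C3, the component on which the 3 pathways meet, rose in both genotypes (0.28 ± 0.10 and 0.26 ± 0.068 SE, adjusted p = 0.037 and 0.0028). The WT call of C3 was lost without 1 of 9 libraries (SPF WT ZT10 replicates 1 and 3, ZT14 replicate 1, ZT18 replicate 1 and ZT22 replicate 2, and GF WT ZT2 replicate 2, ZT14 replicate 1, ZT18 replicate 3 and ZT22 replicate 2). C2, Mbl2 and Cfi rose in WT mice (0.21, 0.25 and 0.15) and F12 and F13b in both (0.13 and 0.11, and 0.19 and 0.12), the last pair without a call in LKO mice once the libraries that went against their labels were left out (adjusted p = 0.066 and 0.076). The LKO calls of F12 and F13b were also lost without 1 of 25 and 1 of 7 libraries of 36, and the WT call of Pros1 without GF WT ZT10 replicate 2. Fgb (0.28 ± 0.084 SE) and Fgg (0.24 ± 0.079 SE) rose in LKO mice. Mbl2 (0.19, adjusted p = 0.055) was called in LKO mice without the libraries that went against their labels. Over all genes in LKO mice, 4741 of 13010 were called with those libraries and 4772 of 13016 without them. The 2 members that fell in GF LKO compared with SPF LKO mice were Cfb, with 20.7 to 48.1 CPM in GF LKO against 29.3 to 60.7 CPM in SPF LKO mice (-0.35 ± 0.087 SE, adjusted p = 0.0020), and C1s1 (-0.24 ± 0.052 SE, adjusted p = 0.00057). Without the libraries that went against their labels, the changes of Cfb and C1s1 were -0.32 and -0.19. A list of 12 acute-phase genes summed to medians of 9809 CPM in SPF WT, 8873 in SPF LKO, 11530 in GF WT and 10900 in GF LKO mice. Of these, 1 rose and 3 fell in GF compared with SPF WT mice and 5 rose and 1 fell in LKO mice, and their part in the members' change was not tested. C1qa, C1qb, C1qc, C1ra, C4b, Masp1, Masp2, Cfp, F5 and Fga had no call in either genotype.

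At single ZT, 16 of the 240 member tests were called in GF compared with SPF WT mice (2.89% of all gene by ZT tests) and 13 in LKO mice (2.71%). F10 was called at 4 ZT in WT (ZT2, ZT10, ZT18 and ZT22) and at 3 in LKO mice (ZT2, ZT18 and ZT22). F11 was called in WT mice at ZT2, ZT10, ZT18 and ZT22, and its level at ZT22 was 66.2 ± 4.21 CPM in SPF WT and 106 ± 6.31 CPM in GF WT mice (SD, n = 3). No member was called at ZT14 in either genotype.

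A 24 h rhythm was tested within each group of 18 by adding a cosine and a sine of ZT to the model. In SPF WT mice 6 of 40 members were called (15% of all genes were), in SPF LKO mice 11 of 39 (21.2%), in GF WT mice 13 of 40 (26.7%) and in GF LKO mice 7 of 39 (35%). The members called in SPF WT mice were Fga, Fgb, Fgg, F11, Klkb1 and Masp1. Those in SPF LKO mice were C2, C8a, C8b, C8g, C1qa, C1qc, Mbl1, Cfi, Proc, Pros1 and Fgb. Those in GF WT mice were C1ra, C2, Masp2, Mbl1, Cfb, Cfd, C8g, Klkb1, F7, F5, Fgb, Fgg and Serpinc1, and those in GF LKO mice were Fga, Fgb, Fgg, F11, Klkb1, F5 and C1qb. Of these calls, 1 of 6, 3 of 11, 9 of 13 and 5 of 7 were kept whichever 1 library was left out.

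In SPF WT mice the largest amplitudes among members called (the height of the fitted wave over its mean, on the log2 scale) belonged to Fga at 0.42, Fgg at 0.36 and F11 at 0.35 (adjusted p = 0.017, 0.0086 and 0.024), the first pair peaking near ZT2 and F11 at ZT10.2. The calls of Fga and Fgb were lost without SPF WT ZT2 replicate 1, whose acute-phase sum of 16070 CPM was among the 3 highest of the 72 libraries. In SPF LKO mice the largest called amplitudes were those of C2 (0.27, peak at ZT14.2), C8a (0.25, ZT12.9) and C8b (0.23, ZT13.3), with adjusted p = 0.016, 0.0065 and 0.045. All of the SPF LKO members called, other than C1qa and C1qc at ZT17.5 and ZT17.3, peaked between ZT9.5 and ZT14.2. Both SPF LKO libraries that went against their genotype stand at ZT14 and ZT18, and without the libraries that went against their labels 9 of the 11 calls stayed, C1qa and C1qc were lost and C9, Fga and Fgg were gained. Over all genes in SPF LKO mice, a rhythm was called for 2971 of 14028 with those libraries and for 2589 of 14292 without them.

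The 3 fibrinogen genes lie together on chromosome 3 (Fgg 83007724 to 83015049, Fga 83026076 to 83033627 and Fgb 83040141 to 83049863, GRCm38, Fgb on the minus strand) and encode the gamma, alpha and beta chains, which are assembled into 1 protein. The bases before each gene are shown because the 3 genes moved together over the day. They number 173 for Fga and 250 for Fgb and Fgg (RefSeq, GRCm38.p6). Capitals mark matches on either strand to a C/EBP-type site (TTGCNNAA), the core of the IL-6 response element (CTGGGA) or AGGTCA. The letters AGGTCA are only a part of the element of ROR and REV-ERB factors, so a match does not show a whole element.
Fga promoter (chr3:83025903-83026075, plus strand): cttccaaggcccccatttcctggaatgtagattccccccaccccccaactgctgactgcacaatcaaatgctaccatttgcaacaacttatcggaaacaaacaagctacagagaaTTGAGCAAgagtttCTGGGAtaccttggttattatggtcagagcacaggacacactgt
Fgb promoter (chr3:83049864-83050113, minus strand): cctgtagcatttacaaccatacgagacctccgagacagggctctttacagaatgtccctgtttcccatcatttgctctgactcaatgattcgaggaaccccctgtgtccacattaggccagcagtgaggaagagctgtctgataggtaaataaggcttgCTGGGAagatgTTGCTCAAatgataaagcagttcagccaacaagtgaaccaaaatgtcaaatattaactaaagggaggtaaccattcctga
Fgg promoter (chr3:83007474-83007723, plus strand): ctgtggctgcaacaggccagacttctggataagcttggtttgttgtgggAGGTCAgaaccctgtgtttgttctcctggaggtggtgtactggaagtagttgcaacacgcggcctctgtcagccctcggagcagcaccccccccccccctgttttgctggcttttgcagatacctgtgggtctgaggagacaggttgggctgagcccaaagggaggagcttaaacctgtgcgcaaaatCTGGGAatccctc
CTGGGA stood at -121 in Fga, -91 in Fgb and -13 in Fgg, the C/EBP-type letters at -135 in Fga and -80 in Fgb, and AGGTCA at -201 in Fgg, counted from the RefSeq start site. Over 32851 promoter windows, CTGGGA was found in 31.8%, TTGCNNAA in 10.8% and AGGTCA in 16.3%, and among the 31 members with a window, Proc again left out, in 18, 10 and 12. A member was counted where any of its windows matched, whereas the shares are of single windows, so they are unlike measures. The E-box CACGTG, the site bound by BMAL1 with CLOCK or NPAS2, was found in 7.15% of all windows and in 0 of these 31. A match is a description of the letters in the window.

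Fga had 2797 to 9428 CPM (median 4678) in SPF WT, 3368 to 6788 CPM (median 5472) in SPF LKO, 2846 to 7635 CPM (median 5372) in GF WT and 4267 to 10270 CPM (median 6198) in GF LKO mice. Fgb had 3375 to 8164 CPM (median 4515), 3983 to 6655 CPM (median 5235), 3859 to 7665 CPM (median 5217) and 4862 to 10250 CPM (median 6077) in the same order of groups. Fgg had 2388 to 6158 CPM (median 3369), 3054 to 5009 CPM (median 3798), 2627 to 6161 CPM (median 3771) and 3456 to 7008 CPM (median 4654). The groups overlapped widely for each gene, and the levels by ZT follow. In SPF WT mice Fga stood at 6933 ± 2208 CPM at ZT2, 3262 ± 403 at ZT10, 4207 ± 214 at ZT18 and 4768 ± 557 at ZT22 (SD, n = 3). In SPF LKO mice it stood at 5623 ± 482 CPM at ZT2, 6392 ± 576 at ZT10 and 4529 ± 388 at ZT18. SPF WT mice had their lowest mean at ZT10, where SPF LKO mice had their highest.

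At ZT10 Fga, Fgb and Fgg were higher in SPF LKO mice than in SPF WT mice by 0.97 ± 0.15, 0.72 ± 0.15 and 0.69 ± 0.16 on the log2 scale (SE, n = 3 per group, adjusted p = 0.00047, 0.0054 and 0.0099), and in GF LKO compared with GF WT mice by 0.80 ± 0.15, 0.73 ± 0.15 and 0.73 ± 0.16 (adjusted p = 0.0016, 0.0039 and 0.0054). In GF LKO mice Fga reached 8748 ± 1390 CPM at ZT10 (SD, n = 3) against 5011 ± 386 in GF WT mice. At none of the other ZT was a fibrinogen gene called between the genotypes.

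The fitted peak times are given for each group, and the test of the difference follows. Fga peaked at ZT1.8 in SPF WT and ZT2.1 in GF WT mice, and at ZT7.7 in SPF LKO and ZT9.2 in GF LKO mice. Fgb peaked at ZT2.5 and ZT2.8 in WT and at ZT9.5 and ZT8.6 in LKO mice, and Fgg at ZT1.9 and ZT2.2 in WT and at ZT9.3 and ZT7.8 in LKO mice, each SPF before GF. The rhythm itself was not called for Fga in SPF LKO and GF WT mice (adjusted p = 0.10 and 0.074) or for Fgg in SPF LKO mice (adjusted p = 0.060), and without the libraries that went against their labels each of these was called, as was F11 in GF WT mice. Over all genes in GF WT mice, the rhythm calls rose from 3523 of 13203 to 4231 of 13436 without those libraries. In GF LKO mice the amplitudes of Fga, Fgb and Fgg, 0.38, 0.31 and 0.27, were the largest among members called (adjusted p = 0.0021, 0.0013 and 0.0035).

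**Figure D4:**
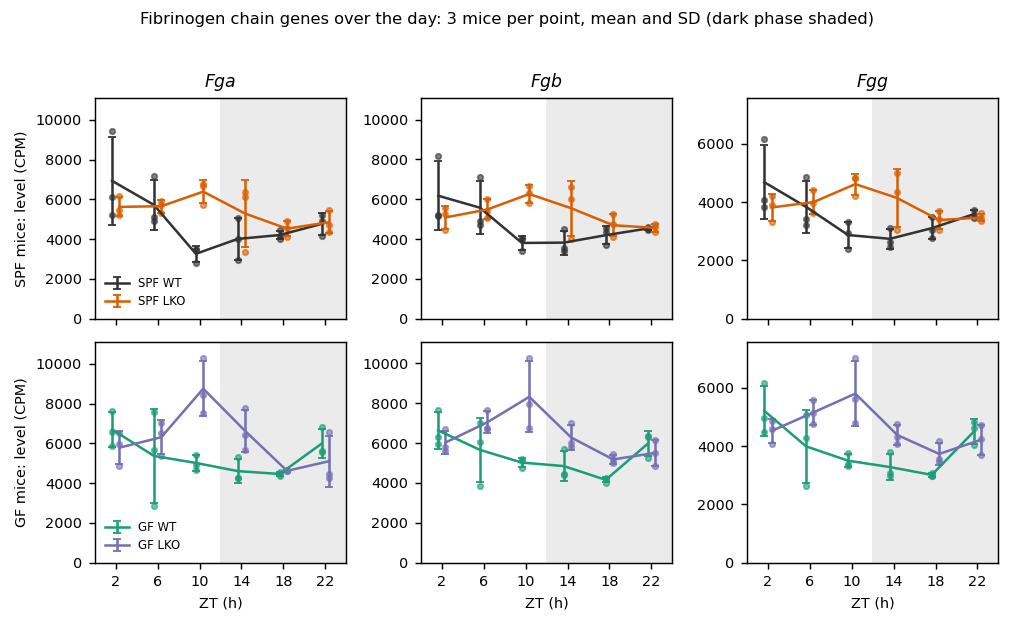
Fga, Fgb and Fgg over the day in SPF (top) and GF (bottom) mice. The horizontal axis is ZT in hours with the dark phase shaded, the vertical axis is CPM from 0, points are mice and lines join the means with SD of 3 mice. WT means are highest at ZT2 and LKO means at ZT10 for each gene, and at ZT10 Fga stood at 8748 CPM in GF LKO against 5011 CPM in GF WT mice.

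The difference of the rhythm between genotypes was tested directly, with the cosine and sine terms of LKO against those of WT over 36 libraries. In SPF mice 2 of 40 members passed (1.02% of all genes), Fgg (adjusted p = 0.020) and Fgb (adjusted p = 0.042), and Fga did not (adjusted p = 0.13). Without the libraries that went against their labels Fga, Fgb and Fgg passed, and the calls over all genes rose from 148 of 14442 to 338 of 14706. The call of Fgb was lost without 1 of 21 libraries of 36 (adjusted p up to 0.10), while that of Fgg was kept without any 1, and neither was called when all mice of 1 replicate number were left out. In GF mice 4 of 40 passed (5.81% of all genes), namely Mbl1 (adjusted p = 0.0021), Fgg (0.013), Fga (0.014) and Fgb (0.016), and each was kept without any 1 library.

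Mbl1, which encodes a mannose-binding lectin that recognises microbial sugars, had 206.8 to 414.2 CPM (median 281.8) in SPF WT, 221.6 to 423.6 CPM (median 303.7) in SPF LKO, 198.0 to 458.6 CPM (median 313.8) in GF WT and 308.2 to 431.3 CPM (median 378.3) in GF LKO mice. In GF WT mice it swung from 384 ± 67.7 CPM at ZT2 to 226 ± 24.9 CPM at ZT10 (SD, n = 3), with an amplitude of 0.41 and a peak at ZT0.6 (adjusted p = 2.7e-05). In GF LKO mice the means stayed between 347 and 407 CPM, with an amplitude of 0.079 and no call (adjusted p = 0.40). In SPF WT mice no rhythm was called (amplitude 0.14, adjusted p = 0.46), and in SPF LKO mice one was, with an amplitude of 0.21 and a peak at ZT11.4 (adjusted p = 0.025). GF LKO mice exceeded GF WT mice at ZT10 and ZT14, by 0.67 ± 0.19 and 0.65 ± 0.15 on the log2 scale (SE, adjusted p = 0.029 and 0.028).

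**Figure D5:**
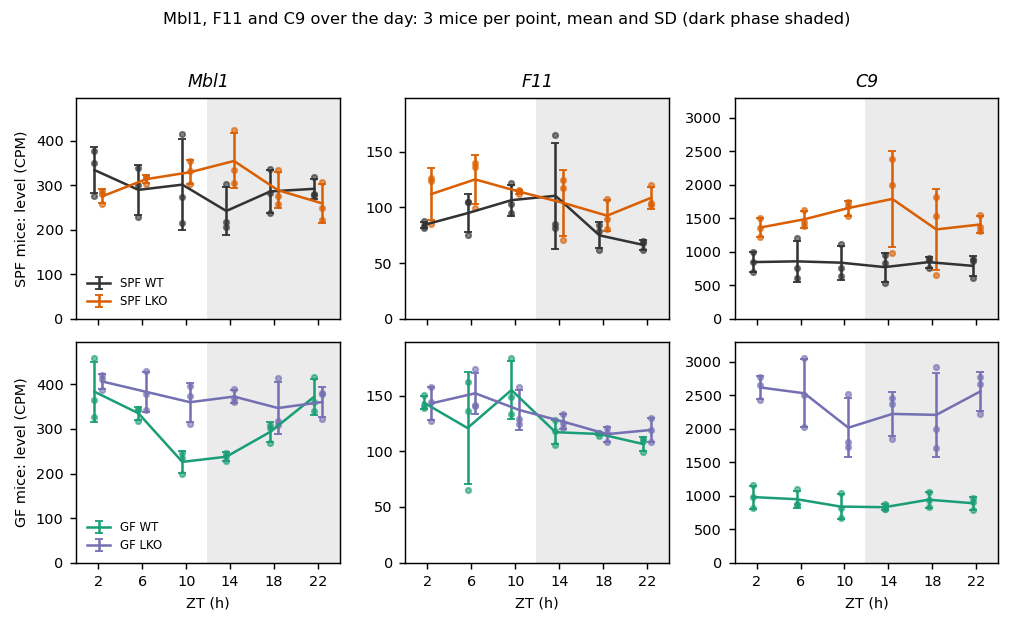
Mbl1, F11 and C9 over the day in SPF (top) and GF (bottom) mice. The horizontal axis is ZT in hours with the dark phase shaded, the vertical axis is CPM from 0, points are mice and lines join the means with SD of 3 mice. Mbl1 in GF WT mice falls from 384 CPM at ZT2 to 226 CPM at ZT10, and C9 in GF LKO mice lies above GF WT mice at each ZT.

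In GF WT mice the largest amplitudes after Mbl1 were those of Fgg (0.35, peak at ZT2.2) and, above both, Cfd, at 1.95 with a peak at ZT7.4 (adjusted p = 0.018). Cfd, the gene of factor D, which cleaves factor B, is expressed mainly in fat, and in these livers it had few counts. The count was 0 in 1 of 18 SPF WT, 7 of 18 SPF LKO, 0 of 18 GF WT and 14 of 18 GF LKO libraries, and at most 161. The highest value, 9.22 CPM, belonged to GF WT ZT6 replicate 3, and without that library the rhythm was not called (adjusted p = 0.063). In CPM, Cfd ranged from 0 to 5.98 (median 0.742) in SPF WT, from 0 to 1.15 (median 0.0468) in SPF LKO, from 0.0583 to 9.22 (median 0.438) in GF WT and from 0 to 0.110 (median 0) in GF LKO mice. It did not pass the filter on low counts in 3 of the 4 pooled comparisons. Of 5 fat cell markers, Adipoq, Retn, Plin1 and Lep had medians under 0.1 CPM in every group, and Cidec, which hepatocytes also express, was lower in LKO mice in both microbial states.

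The wider pathway was followed in 57 further genes of receptors, regulators, cofactors and inhibitors. Between the genotypes in SPF mice 10 of 46 tested were called, 4 higher and 6 lower in LKO, which is 21.7% where 11.6% of all genes rose and 11.5% fell. Large changes were those of Itgax, an integrin chain of complement receptor 4 (-1.14 ± 0.39 SE, mean 0.427 against 0.940 CPM) and of F2r, a thrombin receptor gene (0.73 ± 0.096 SE, 73.4 against 44.1 CPM). In GF mice 9 of 45 were called, 5 higher and 4 lower (20%, where 15.6% of all genes rose and 15.2% fell), led by Serpina5, the protein C inhibitor gene (-0.97 ± 0.29 SE), F2r (0.91 ± 0.084 SE) and Kng2 (-0.35 ± 0.036 SE). Itgax and Serpina5 lay below 1 CPM, whereas F2r rested on some 40 to 80 CPM and rose in LKO mice in both microbial states.

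Between GF and SPF mice, 15 of 45 of these genes were called in WT (10 higher, 5 lower) and 18 of 45 in LKO mice (12 higher, 6 lower). These are 33.3% and 40%, where 14.2% of all genes rose and 17.7% fell in WT mice and 18.1% rose and 18.4% fell in LKO mice. C4a fell in both, by 0.94 ± 0.24 and 0.88 ± 0.20 on the log2 scale (SE), from 28.2 to 14.9 CPM in WT and from 28.1 to 15.3 CPM in LKO mice, with the same reservation as for its near copy C4b. Vkorc1, whose enzyme recycles vitamin K (0.39 ± 0.12 SE), and Itgb2, the beta chain of leukocyte integrins (-0.54 ± 0.18 SE), completed the 3 largest in WT mice. In LKO mice they were F3, the tissue factor gene (-0.61 ± 0.23 SE), and Serpinf2, the gene of the plasmin inhibitor (0.42 ± 0.087 SE). None of 47 passed the test of the difference of the genotype effect (3 with an unadjusted p under 0.05), and a rhythm differing between genotypes was called for 0 of 53 in SPF mice (1.02% of all genes, 12 of the 53 with an unadjusted p under 0.05) and for 2 of 50 in GF mice (5.81% of all genes), Hrg (adjusted p = 0.014) and Lman1 (adjusted p = 0.038).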

How the data were processed

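Liver RNA was sequenced in 72 libraries, and the deposited values are raw counts of reads per gene. Single-end reads had been mapped to mm10 by the authors (STAR 2.6.1b) and counted over Ensembl exons (featureCounts 2.0.0), ignoring strand. Multi-mapping reads and those shared by genes were dropped, which affects paralogs. Libraries took group, ZT and replicate number from their labels, and 0 columns were unused. Changes were tested with edgeR 4.0.16 (R 4.3.3), by quasi-likelihood, after filterByExpr and TMM scaling, and p-values were adjusted over all genes tested (Benjamini-Hochberg, threshold 0.05). Fits of a pair of groups used the 36 libraries concerned, fits at a single ZT the 12 libraries of that ZT, and the difference of effects all 72. Rhythms had cosine and sine terms of 24 h. DESeq2 1.42.0, limma 3.58.1 on log2 CPM, RLE scaling, no filter, a replicate block, ZT as a factor and omitted libraries were alternatives. Scripts were tested on simulated data. Members and lists were chosen with earlier results of these data known. Full values go to the 6 largest called changes per comparison, members called for a difference of effect or rhythm, and the 3 largest amplitudes per group. Replicates are separate mice. Promoters are from RefSeq. A result among the further pathway genes is not reported here.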

Additional observations from a re-analysis of the deposited data

Results flagged for a closer look

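The 24 h rhythm of 4 members differed between LKO and WT mice by the direct test of the cosine and sine terms (edgeR's quasi-likelihood test, Benjamini-Hochberg adjusted over all genes). In SPF mice, where 1.02% of all genes passed, these were Fgb (adjusted p = 0.0424) and Fgg (adjusted p = 0.0202). In GF mice, where 5.81% of all genes passed, they were Mbl1 (adjusted p = 0.0021), Fga (adjusted p = 0.0136), Fgb (adjusted p = 0.0164) and Fgg (adjusted p = 0.013). The SPF call of Fgb was lost when certain single libraries were left out, and neither SPF call was kept with the replicate block. Each fibrinogen gene stood higher in LKO mice at ZT10 in both microbial states, with 3 of 3 LKO libraries above 3 of 3 WT libraries. The ZT10 values are part of those tested for the rhythm, so they are no separate support. The share of all genes parted in this way at ZT10 is not given here. Whether the change of rhythm differs between SPF and GF mice was not tested.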

How the results depend on the processing

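No member called in a comparison pooled over ZT changed direction under the alternatives run for it. Direction was not followed for rhythm calls, whose amplitude has no sign, or for calls at a single ZT. Results without a call were not followed either. Pooled over ZT, the counts of members called (14 in SPF mice and 26 in GF mice between genotypes, 18 in WT and 24 in LKO mice between GF and SPF) lay within 1.5 times of these under RLE scaling, no filter, ZT as a factor, DESeq2 and the omission of any 1 library. Leaving out a replicate number gave 8 to 13, 15 to 17, 8 to 14 and 16 to 20. The difference of the genotype effect gave 1 member with DESeq2 and 0 to 1 without 1 library. Rhythm calls depended on the model: with ZT as a factor they were 1 and 1 in SPF WT and LKO mice and 5 and 4 in GF WT and LKO mice, without a filter 7 in SPF LKO mice, without a replicate number 0 to 4, 0 to 4, 2 to 13 and 1 to 6, and without 1 library 3 to 7, 4 to 14, 10 to 16 and 5 to 9. The rhythm difference gave 1 member with limma in SPF mice, 0 to 0 without a replicate number and 1 to 3 without 1 library there, and 1 to 3 and 4 to 6 in GF mice. Single-ZT calls in SPF mice were 38 without a filter, 35 with DESeq2, 33 without the libraries that went against their labels, 6 to 10 without a replicate number and 15 to 27 without 1 library. In GF mice the last 2 were 8 to 19 and 27 to 34. Between GF and SPF they were 32 and 35 in WT and 28 and 31 in LKO mice without a filter and with DESeq2, 0 to 9 and 1 to 15 without a replicate number, and 12 to 19 and 9 to 16 without 1 library. The cause was not tested. Depth limits Cfd.

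The labels do not say whether mice of the same replicate number belong together. Same-numbered deviations correlated with medians of 0.0207, -0.0219, 0.00371 and -0.0371 and highest values of 0.2916, 0.2432, 0.4103 and 0.1525. In the same order 6, 3, 6 and 3 of 18 pairs exceeded 0.1. With the replicate block the pooled counts were 16, 26, 19 and 23, the rhythm difference in SPF mice fell to 0 members (adjusted p = 0.0724 for Fgg and 0.127 for Fgb), and single-ZT calls were 15, 29, 8 and 11. In SPF mice 56.2% of calls between genotypes were then higher, against 42.9%.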
